A study of Mus musculus with 8 samples.

Results

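The comparison described here set satellite cells that had been placed in differentiation culture with a control siRNA against satellite cells taken from regenerating muscle, and used 4 of the 8 ATAC-seq libraries of the series. ATAC-seq marks open chromatin by letting the Tn5 transposase cut and tag accessible DNA, and each library was represented by its own list of broad peaks. All cells came from C57BL/6 mice, a standard inbred strain, and were labelled as muscle stem cells from skeletal muscle. The 2 ASC libraries were made from satellite cells obtained 2.5 days after injury, with no other treatment listed. The 2 LncMyod Control libraries were made from cultured satellite cells that received a control siRNA, and the series text states that this culture was for differentiation. The growth protocol names hindlimb muscle and F10 medium with 10% HS and P/S, and the same protocol text stands with all samples. The 2 QSC libraries were made from freshly isolated satellite cells. The 2 LncMyod Knockdown libraries were made from cultured satellite cells with an siRNA against the long noncoding RNA LncMyod. The labels give 48 h for this siRNA and no time for the control siRNA. QSC and LncMyod Knockdown entered only where regions or genes were followed outside the comparison and where covered length was fitted over all 8 libraries. By their labels ASC and LncMyod Control differed in culture and siRNA delivery. The labels do not give the time in culture, or whether injury or medium differed as well. The parts of injury, culture, medium and siRNA delivery cannot be told apart. Whether the 2 replicates of a group are separate animals or cultures is not in the labels. Each p-value thus measures only the spread between these libraries, which may be technical.

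Satellite cells are the resident stem cells of skeletal muscle. Injury brings them out of quiescence and into division, and in culture with little serum they leave the cell cycle, switch on Myog and fuse into myotubes that build sarcomeres. The MyoD family of transcription factors drives this program by binding E-boxes together with E proteins, and MEF2 and TEAD factors act with them on the genes of the contractile apparatus. A peak in ATAC-seq shows that DNA was accessible, not that a gene was transcribed.

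The ASC lists held 70341 and 59666 peaks covering 51.2 and 42.4 Mb, and the LncMyod Control lists held 82854 and 81327 peaks covering 52.4 and 52.3 Mb. ASC peaks were wider, with medians of 599 and 588 bp against 489 and 501 bp. Peaks at a −log10 q of 5 or more made up 58.5% and 52.7% in ASC against 69.9% and 66.8% in LncMyod Control. The lists carry no read counts, so sequencing depth is unknown, and the lack of a peak does not show closed chromatin. ASC replicate 2 had the shortest list of the 8 libraries and decided several counts, which are given with and without it below.

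Promoters of muscle structure genes were among those that separated the groups, and some of them are printed here because the first result is about them. Each line is the RefSeq sequence of the promoter window on GRCm38.p6, from 250 bp before to 50 bp after the gene's start, read 5′ to 3′ on the gene's strand. Capitals mark matches on either strand to any of 7 short motifs: the E-boxes CAGCTG and CAGGTG, AP-1 (TGANTCA), MEF2 (CTA, any 4 bases, TAG), TEAD (CATTCC), RUNX (TGTGGT) and NF-I (TTGGC, any 5 bases, GCCAA). Matches to different motifs may overlap. The first 5 genes come in the order of the naming rule, with Bgn, Casq2 and Csrp3 left out, and Tnnt2 and Myoz2 were added after their matches were seen. Of those left out, the Casq2 window held none of the 7 motifs, Csrp3 held 1 RUNX match and Bgn 1 CAGCTG. The printed windows therefore do not represent the motif content of the list members.
Acta1, chr8:123894726-123895025, minus strand: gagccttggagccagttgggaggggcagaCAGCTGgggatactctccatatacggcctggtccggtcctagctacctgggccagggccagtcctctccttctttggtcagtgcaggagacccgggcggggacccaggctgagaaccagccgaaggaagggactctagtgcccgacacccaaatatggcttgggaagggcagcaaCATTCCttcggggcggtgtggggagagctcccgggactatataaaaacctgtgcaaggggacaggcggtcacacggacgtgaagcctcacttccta
Actc1, chr2:114052826-114053125, minus strand: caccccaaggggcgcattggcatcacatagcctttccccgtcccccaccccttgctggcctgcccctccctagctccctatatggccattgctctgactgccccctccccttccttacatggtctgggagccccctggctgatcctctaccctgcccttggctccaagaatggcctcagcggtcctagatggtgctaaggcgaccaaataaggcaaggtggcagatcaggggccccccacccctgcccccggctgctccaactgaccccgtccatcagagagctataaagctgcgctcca
Cacna1s, chr1:136052561-136052860, plus strand: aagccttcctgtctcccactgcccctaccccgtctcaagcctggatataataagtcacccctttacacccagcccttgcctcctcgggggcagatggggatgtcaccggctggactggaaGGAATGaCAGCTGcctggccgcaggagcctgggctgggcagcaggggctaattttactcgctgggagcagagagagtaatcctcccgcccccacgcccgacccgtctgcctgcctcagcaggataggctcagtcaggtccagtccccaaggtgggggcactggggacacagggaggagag
Ckm, chr7:19410844-19411143, plus strand: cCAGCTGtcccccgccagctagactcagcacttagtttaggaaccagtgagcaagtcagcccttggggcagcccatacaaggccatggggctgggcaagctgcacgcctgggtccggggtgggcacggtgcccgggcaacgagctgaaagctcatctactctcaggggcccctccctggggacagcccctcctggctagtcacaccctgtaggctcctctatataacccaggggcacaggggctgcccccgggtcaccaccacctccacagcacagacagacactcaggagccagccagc
Mb, chr15:77022738-77023037, minus strand: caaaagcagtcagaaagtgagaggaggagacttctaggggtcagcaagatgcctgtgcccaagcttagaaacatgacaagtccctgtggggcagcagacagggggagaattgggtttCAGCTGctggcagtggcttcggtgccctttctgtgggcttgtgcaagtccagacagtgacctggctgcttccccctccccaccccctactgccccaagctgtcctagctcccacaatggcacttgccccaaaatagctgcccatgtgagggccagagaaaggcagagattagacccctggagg
Tnnt2, chr1:135836084-135836383, plus strand: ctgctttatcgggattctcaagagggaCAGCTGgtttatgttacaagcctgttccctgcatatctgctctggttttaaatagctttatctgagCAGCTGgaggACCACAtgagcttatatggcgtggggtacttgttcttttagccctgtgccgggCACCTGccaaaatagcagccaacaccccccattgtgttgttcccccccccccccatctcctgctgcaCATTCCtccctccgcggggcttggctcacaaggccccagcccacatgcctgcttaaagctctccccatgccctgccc
Myoz2, chr3:123034938-123035237, minus strand: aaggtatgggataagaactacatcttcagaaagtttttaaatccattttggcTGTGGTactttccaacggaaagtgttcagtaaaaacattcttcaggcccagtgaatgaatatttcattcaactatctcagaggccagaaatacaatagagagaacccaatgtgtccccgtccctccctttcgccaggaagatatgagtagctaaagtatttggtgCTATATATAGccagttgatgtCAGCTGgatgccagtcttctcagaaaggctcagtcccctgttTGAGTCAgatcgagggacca

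Over all 17274 protein-coding genes with a window on 19 chromosomes, 116 (0.672%) had a promoter window touched by a peak in both LncMyod Control libraries and in neither ASC library, and 170 (0.984%) showed the reverse. Both classes were small beside the 10279 genes whose window was held by all 4 libraries and the 5870 held by none. With 2 libraries against 2 there are 3 ways to split the samples, the smallest exact p is 0.333, and these counts therefore carry no p. The LncMyod Control count was 218 without ASC replicate 1 and 175 without LncMyod Control replicate 1, the ASC count was 276 to 333 without any 1 library, and with equally long lists they were 62 and 534. Among 71 genes of the 6 muscle function lists with a window (thin filament, thick filament, Z-disc, excitation-contraction coupling, neuromuscular junction and muscle metabolism), 17 were held by LncMyod Control only and 0 by ASC only, or 11 and 0 with equally long lists. The lists were chosen with earlier results of these data known, so this count describes and does not test.

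Acta1, which encodes skeletal alpha-actin, had no peak on its window in either ASC library and peaks of 2.86-fold and 2.76-fold enrichment in the LncMyod Control libraries. Actc1, the cardiac and fetal muscle actin, was at 2.92-fold and 2.43-fold, again with no ASC peak. The troponin T gene Tnnt2 reached 4.16-fold and 4.22-fold. Neither ASC library had a peak over the window of any of these genes, and fold here is the authors' enrichment over the background of that library, used for description. Tnni1, slow troponin I, was at 2.87-fold and 2.68-fold, and Tnnt1, slow troponin T, at 3.22-fold and 3.02-fold.

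The thick filament promoters held by LncMyod Control only were 5: Myh7 and Myh8 (slow and perinatal myosin heavy chains), Myl2 (a regulatory light chain), Mybpc2 (fast myosin-binding protein C) and Myom1 (myomesin of the M-line). Their peaks ran from 2.42-fold in LncMyod Control replicate 2 at Mybpc2 to 3.59-fold in replicate 1 at Myh8. Of the Z-disc genes, Xirp2 had the highest folds of the 18 list members concerned, 6.19 and 5.14, while Csrp3 (muscle LIM protein) had 4.11 and 3.71 and Myoz2 (calsarcin 1) 4.13 and 3.41. The voltage sensor gene Cacna1s had 4.10 and 4.04, and Casq2, which encodes a calcium-storing calsequestrin, had 4.50 and 3.45. At Cacna1s both ASC libraries had peaks of 3.87-fold and 3.36-fold in the region that overlaps the window, but these did not reach the window. There the groups differed in the extent of peaks and not in the presence of the region. For metabolism, Ckm (muscle creatine kinase) had 3.39 and 3.43 and Mb (myoglobin) 2.37 and 2.57. Bgn, a matrix proteoglycan with 2.93 and 3.06, was the remaining list member held by LncMyod Control only, and no member of any of the 20 lists was held by ASC only.

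**Figure D1:**
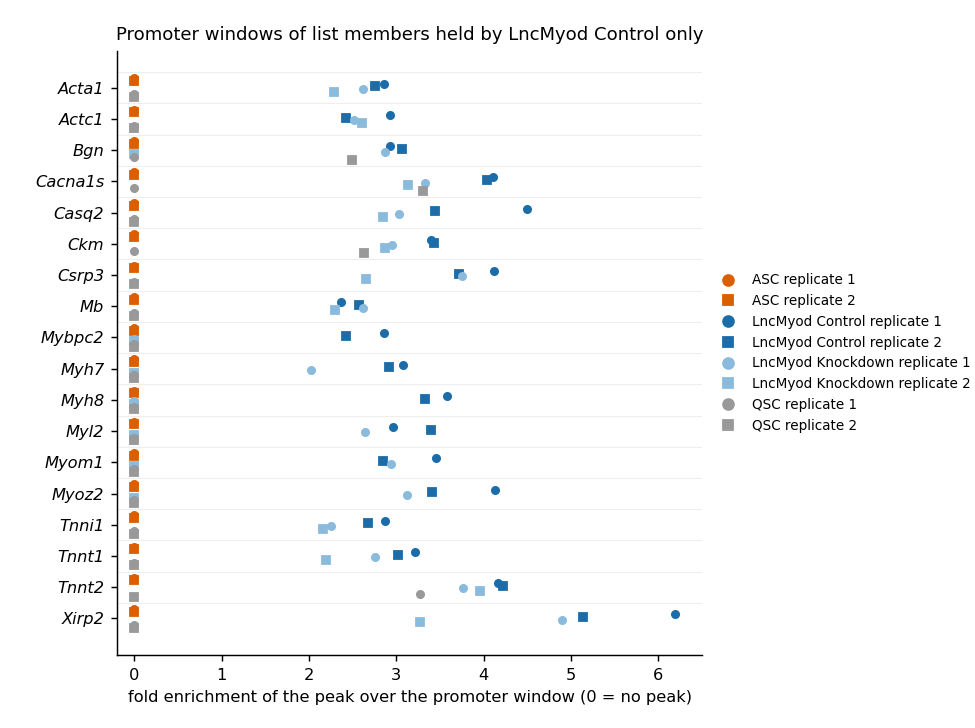
Fold enrichment (x axis, linear) of the peak over the promoter window of the 18 list members held by LncMyod Control only, 1 point per library, with 0 for no peak. All ASC points sit at 0, the LncMyod Control points lie between 2.37 and 6.19, and the LncMyod Knockdown points lie at 0 or up to 4.90. The QSC points lie at 0 or up to 3.31.

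Outside the lists, further genes known from muscle stood among the 116, picked here after their values were seen. They were Trim63 (the ubiquitin ligase MuRF1, folds 4.10 and 3.77), Capn3 (the muscle calpain, 6.32 and 5.58), Tmem182 (7.84 and 6.05), Nrap (a Z-disc and junction protein, 4.14 and 4.26), Unc45b (a myosin chaperone, 3.64 and 3.16), Srpk3 (a muscle kinase, 4.80 and 4.68), Apobec2 (4.75 and 4.07) and Cox8b (3.82 and 3.18). None of them had an ASC peak on the window. Among the 170 genes on the ASC side, also picked afterwards, were the neutrophil chemokine genes Cxcl3 (4.32 and 2.93 in the ASC libraries) and Cxcl2 (3.69 and 3.57), the cytokine gene Il11 (3.27 and 3.31), the peptide hormone gene Adm (2.17 and 2.37) and the Notch target Hes5 (2.41 and 2.34). These 5 windows also carried peaks in both QSC libraries, with folds from 1.99 at Adm to 4.15 at Cxcl3. On the LncMyod Control side, the Apobec2 window had peaks in both QSC libraries too (3.55 and 2.93). The windows of Tnnt2, Cacna1s, Ckm, Bgn and Srpk3 had a peak in 1 QSC library, and those of the other genes named on that side had none.

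The other libraries held the 2 promoter classes unequally. Of the 116 LncMyod Control promoters, 24 had a peak in both QSC libraries and 77 in neither, while 63 had one in both LncMyod Knockdown libraries and 18 in neither. Of the 170 ASC promoters, 68 had a peak in both QSC libraries and 69 in neither, while 29 had one in both LncMyod Knockdown libraries and 79 in neither. The motif content of the windows differed as well, given here as a description without a test. CAGCTG occurred in 44.0% of the 159 windows held by LncMyod Control only, in 15.2% of the 230 held by ASC only and in 15.7% of all 21045 windows. The MEF2 pattern was found in 10.1%, 1.74% and 3.51%, TEAD in 22.6%, 11.3% and 13.5%, and RUNX in 27.7%, 12.6% and 14.7%. CAGGTG gave 24.5%, 30% and 19.9%, and AP-1 8.18%, 8.26% and 7.04%. NF-I had no match in either group's windows. GC content was 51.0%, 58.9% and 56.4%, and its part in these shares was not tested. In the sequences above, Tnnt2 carried CAGCTG at −223 and −157 and CAGGTG at −94 relative to its start, and Myoz2 carried CAGCTG at −12 beside a MEF2 pattern at −33, whereas the Actc1 window held none of the 7 motifs.

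The promoters of the myogenic regulators themselves did not separate the groups by presence. All 13 of the 21 listed myogenic transcription factors that have a window were held by all 4 libraries, Pax7, Myf5 and Myog included. Over these shared regions the strength of a peak was compared by its percentile rank: within each library, the largest fold of its peaks in a region was ranked from 0 to 100 over the 45000 regions held by all 4. The Myog promoter region ranked 15.0 and 3.33 in ASC and 17.9 and 29.3 in LncMyod Control. The Pax7 promoter region ranked 7.47 and 10.0 against 2.89 and 5.16, and that of Myf5 4.95 and 22.9 against 15.2 and 6.57. The Myog ranks did not overlap but lay only 2.88 points apart, those of Myf5 overlapped, and limma on the ranks called none of the 3 (for Myog, Pax7 and Myf5 the adjusted p was 0.193, 0.371 and 0.792, 2 libraries a group). Of 193 promoter regions of list members held by all 4, 9 (4.66%) were higher and 10 (5.18%) lower in LncMyod Control by at least 20 points in both replicates, against 1.25% and 5.38% of all shared regions on promoter windows. Lmod2, whose leiomodin product nucleates thin filaments, went from 7.85 and 27.6 in ASC to 75.0 and 82.4 in LncMyod Control (adjusted p 0.0277 by limma). Cav3, the muscle caveolin, went from 41.96 and 22.5 to 88.3 and 73.9 (adjusted p 0.0399 by limma). Actn2, a sarcomeric alpha-actinin, shifted the other way at its promoter, from 85.7 and 86.3 to 56.1 and 58.5 (adjusted p 0.0317 by limma). So did Dysf, the membrane repair protein dysferlin, from 52.8 and 42.1 to 4.37 and 12.2 (adjusted p 0.0346 by limma). Pygm (muscle glycogen phosphorylase), Sparc (a matrix protein) and the smooth muscle actin gene Acta2 were the other upward regions among these that limma called, and Cd34, Timp3, Ddx58 and Cd68 the other downward ones. The regions that met the 20-point rule but not the limma threshold were those of Tcf12, Fosb, Ccnd3 and Ier3 upward and of Calcr, Wnt4, Fgf2 and Flt1 downward. In all, limma called 10 of the 193 regions lower and 5 higher, of which 6 and 5 met the 20-point rule. Among the lower ones outside the rule were the regions of Ccnb2 (98.8 and 99.1 to 81.1 and 80.8, adjusted p 0.0254 by limma), Cdk2 and Gbp2.

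Counted over all regions, those on promoter windows included, the imbalance lay on the side of the culture. Of the 105937 regions held by any of the 4 libraries, 16573 (15.6%) were held by both LncMyod Control libraries and no ASC library, and 3726 (3.52%) by both ASC libraries and no LncMyod Control library. Without ASC replicate 1 the LncMyod Control count was 24891, and without either ASC library the ASC count was 8707 or 10741. Regions held by LncMyod Control only were narrow, with a median width of 514 bp against 635 bp for ASC only and 1073 bp for regions held by all 4. Only 1.74% of them lay on a promoter window, compared with 5.02% of the ASC regions and 25.2% of the shared ones. Inside a gene body lay 63.2%, 65.4% and 74.5%. Within each library these peaks were weaker than those of the shared regions. Median folds were 3.88 and 3.54 beside 5.25 and 4.87 for shared regions in the LncMyod Control libraries, and 3.26 and 2.79 beside 4.62 and 3.72 in the ASC libraries. A −log10 q of 5 or more was reached by 60.2% and 53.1% of the LncMyod Control only regions beside 87.3% and 85.3% of shared ones, and by 36.8% and 18.3% of the ASC only regions beside 81.2% and 66.5%. When each list was cut to the same number of strongest peaks, the counts moved to 10131 and 7563, with LncMyod Control still the larger.

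**Figure D2:**
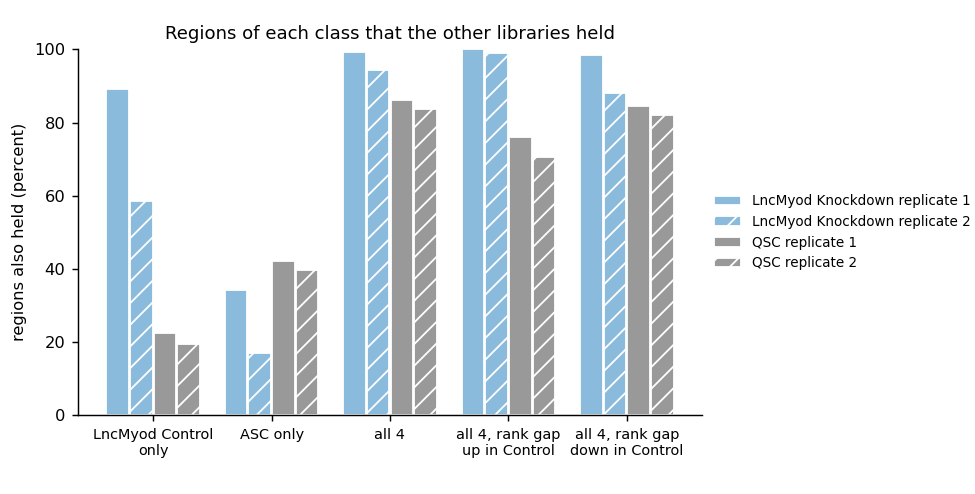
Percent of regions (y axis, linear from 0) of 5 classes that also had a peak in each LncMyod Knockdown and QSC library. LncMyod Control only regions were held mostly by LncMyod Knockdown replicate 1 (89.2%) and less by replicate 2 (58.6%), and ASC only regions more by the QSC libraries (42.2% and 39.7%).

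Regions held by LncMyod Control only were largely absent from uncultured cells: 74.4% had no peak in either QSC library and 16.3% had one in both. In the LncMyod Knockdown libraries 56.7% recurred in both and 8.92% in neither, and 1175 regions had no peak in any other library of the series. The 2 LncMyod Knockdown lists differ in length (95449 and 79396 peaks), and what list length contributes to the gap between 89.2% and 58.6% was not tested. ASC only regions showed the opposite lean. Of them 35.3% were held by both QSC libraries and 53.4% by neither, 10.9% by both LncMyod Knockdown libraries and 59.6% by neither, and 1209 were found nowhere else.

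The strongest of the regions held by LncMyod Control only, by the lower of their 2 ranks among all regions of each library, stood mostly beyond 10 kb of protein-coding genes. Noncoding genes were not considered for this. The first, chr3:61097053-61097487 on mm10, had folds of 13.2 and 11.9 and lay beyond 10 kb of any protein-coding gene in the RefSeq table. Both LncMyod Knockdown libraries held it at 9.51 and 5.53, and neither QSC nor ASC library did. A region inside B3galt1, a glycosyltransferase gene, at chr2:67587026-67587488 had 12.5 and 11.4 and was likewise absent from QSC. By contrast, chr1:63628147-63628648 inside Dytn (dystrotelin) had 14.0 and 11.6 in LncMyod Control and also 7.79 and 6.75 in QSC, so this site had a peak in freshly isolated and in cultured cells but none in the ASC lists. On the ASC side, chr6:38315952-38316438 inside Zc3hav1, which encodes the antiviral protein ZAP, had folds of 7.99 and 7.34. Its QSC folds were 3.10 and 2.55, and no cultured library held it. Cubn, the gene of the endocytic receptor cubilin, held chr2:13480738-13481178 at 7.65 and 6.37 with no peak in the other 6 libraries.

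Shared regions changed in strength in both directions. Library ranks correlated at 0.872 between the ASC replicates, 0.929 between the LncMyod Control replicates and 0.675 to 0.707 across groups, over 45000 regions that are not independent. A shift was called present in both replicates when the lower rank of one group exceeded the higher rank of the other by 20 points or more. By this rule 3577 regions (7.95%) were higher in LncMyod Control and 2963 (6.58%) were lower, and the largest gaps were 91.1 and 81.4 points. Just inside the rule, at gaps of 20 to 22, were 441 and 455 regions, and just outside, at 18 to 20, were 440 and 490. Without ASC replicate 1 the rule gave 5995 and 5584 regions and without ASC replicate 2 it gave 6655 and 6232, since 1 library is easier to exceed than 2. limma on the ranks called 2893 regions higher (6.43%) and 2136 lower (4.75%) at an adjusted p of 0.05, of which 2524 and 1800 also met the gap rule. Leaving out either LncMyod Control library ended all of these limma calls (smallest adjusted p 0.0609 and 0.0767), although 4699 and 4923 regions were higher and 3991 and 4116 lower at an unadjusted p of 0.05. Without ASC replicate 1 the lower count was 1359.

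**Figure D3:**
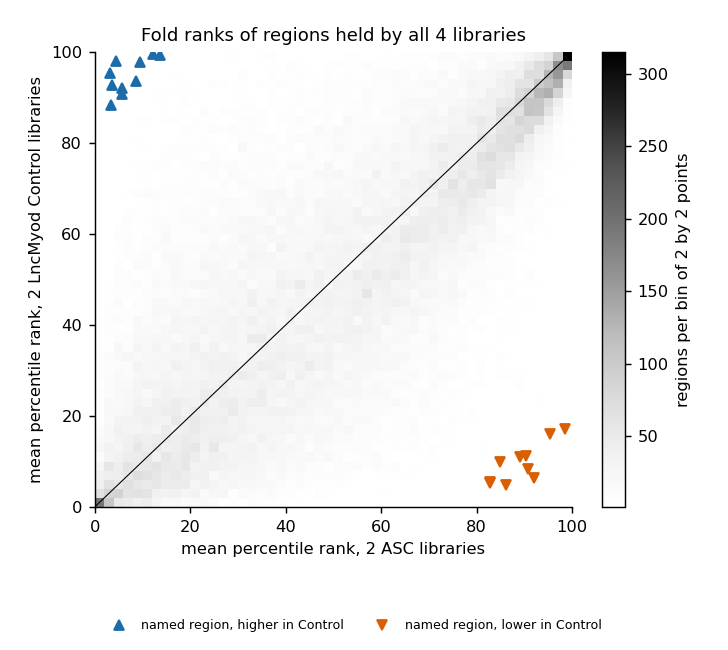
Mean percentile rank by fold in the 2 ASC libraries (x axis) and the 2 LncMyod Control libraries (y axis) for 45000 shared regions, as counts per bin, with the 10 named regions of each direction as triangles. Most regions lie near the diagonal, and the named regions occupy the 2 opposite corners.

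The 2 directions differed in position. On promoter windows 142 of 11329 shared regions (1.25%) were higher and 609 (5.38%) lower in LncMyod Control by the gap rule, against 10.2% and 6.99% of the 33671 regions elsewhere. Chromosomes 18 and Y had no windows here, so all their shared regions count as elsewhere. The median rank difference, LncMyod Control minus ASC, was −5.03 points on promoter windows and 0.56 elsewhere. Since ranks sum to the same total in every library, these are relative positions and not changes in absolute accessibility. Covered length moved with rank: of the regions shifted up, 45.4% had more covered bp in both LncMyod Control libraries than in both ASC libraries and 14.0% had less, and of those shifted down 12.6% had more and 51.7% less. Over all shared regions the 2 shares were 20.3% and 29.5%.

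Ranks in the remaining libraries were taken over the 35293 regions held by all 8, where the QSC medians lay between those of the groups. The 2394 upward regions among them had median ranks of 21.5 and 18.97 in ASC, 35.9 and 32.5 in QSC, 62.4 and 56.6 in LncMyod Knockdown and 68.2 and 67.8 in LncMyod Control. For the 2146 downward regions the medians were 60.5 and 59.7 in ASC, 45.0 and 44.7 in QSC, 24.7 and 24.7 in LncMyod Knockdown and 19.8 and 20.2 in LncMyod Control. In both directions the LncMyod Knockdown medians lay closer to those of LncMyod Control than to those of ASC or QSC. The ASC and LncMyod Control values here were used to choose the regions and are given as a description. Any other library tends to fall between groups chosen to lie far apart. The place of QSC between them therefore follows in part from the choice and is not a separate result.

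**Figure D4:**
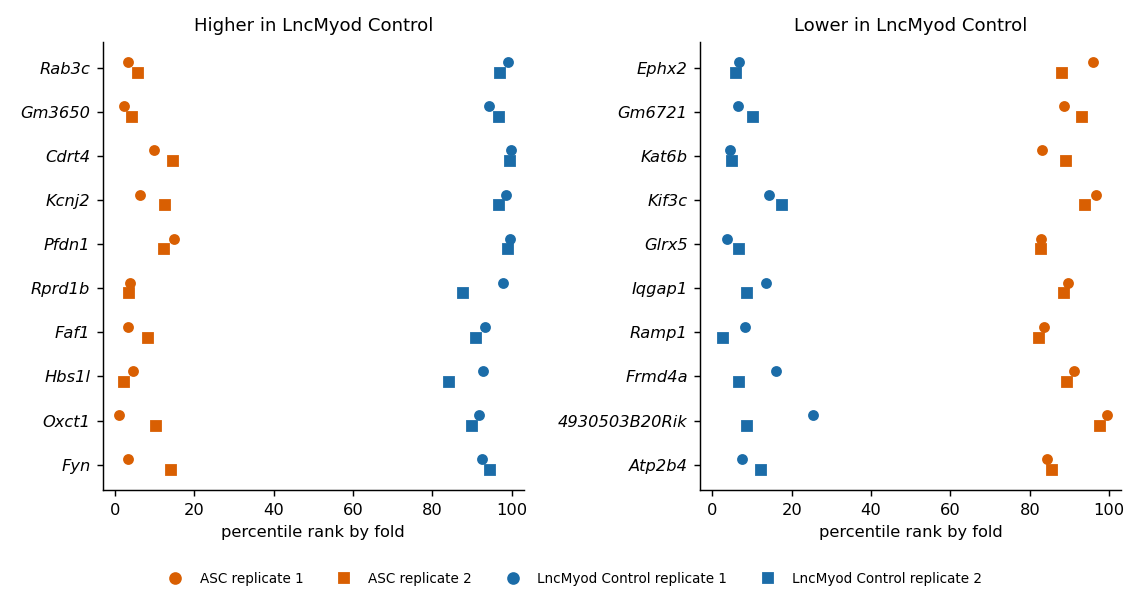
Percentile rank by fold (x axis, 0 to 100) of the 10 named regions per direction, labelled by the gene that holds them within 10 kb, 1 point per library. In every region the replicates of a group lie near each other and the groups are separated by 71.9 to 91.1 points.

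The largest upward shift lay inside the gene body of Rab3c, which encodes a Rab GTPase of vesicle release, at chr13:110054435-110055162. The gene table used here gives gene bodies without exons. Its folds were 2.67 and 2.49 in ASC and 11.1 and 9.36 in LncMyod Control, which ranked 3.22 and 5.90 against 99.04 and 96.96. Ranks of the 2 groups were separated by 91.1 points (difference 93.4 ± 8.64 SE, adjusted p 0.0254 by limma, n = 2 against 2). The same adjusted p held for all 20 named regions. LncMyod Knockdown had folds of 8.74 and 7.31 there, and QSC 3.07 and no peak.

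Kcnj2 encodes the inward rectifier potassium channel Kir2.1, which hyperpolarises differentiating myoblasts. A region 5784 bp outside the gene, chr11:111059413-111060379, ranked 6.28 and 12.7 in ASC and 98.6 and 96.8 in LncMyod Control, and neither QSC library held it. Upward regions with gaps of 78.4 to 85.0 points also stood at Cdrt4 (chr11:62949306-62950004), Rprd1b (a regulator of RNA polymerase II), Faf1 (a ubiquitin-binding protein), Hbs1l (a ribosome rescue factor), Oxct1 (the enzyme of ketone body use) and Fyn (a Src family kinase). Gm3650 and Pfdn1 completed the 10. At Oxct1 the ranks were 1.14 and 10.4 against 91.8 and 89.9. At Fyn, chr10:39536134-39536836 ranked 3.20 and 14.0 against 92.4 and 94.6. None of the 10 regions lay on a promoter window, though those at Gm3650 and Pfdn1 are on chromosome 18, which had no windows here. Of the 10, 4, at Kcnj2, Faf1, Hbs1l and Oxct1, had no peak in either QSC library.

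The largest downward shift lay in the body of Ephx2, the gene of soluble epoxide hydrolase, at chr14:66123925-66124979. Its ranks were 96.0 and 88.2 in ASC and 6.82 and 6.00 in LncMyod Control, with folds of 8.29 and 5.93 against 3.04 and 2.82. QSC folds were 6.00 and 5.83 and LncMyod Knockdown folds 3.39 and 2.94. Iqgap1, which encodes a scaffold of the actin cytoskeleton, held chr7:80714821-80715887 at ranks of 89.7 and 88.6 against 13.4 and 8.78. Ramp1, the accessory protein of the CGRP receptor, held chr1:91219617-91220025 at 83.5 and 82.3 against 8.28 and 2.69. At Ramp1 the QSC folds were also low, 2.89 and 2.98 beside ASC folds of 6.59 and 5.39, while at Iqgap1 the QSC folds of 7.20 and 5.98 were near those of ASC. The remaining downward regions were at Kat6b (a histone acetyltransferase), Kif3c (a kinesin), Glrx5 (a mitochondrial glutaredoxin), Frmd4a, Atp2b4 (a plasma membrane calcium pump), 4930503B20Rik and Gm6721, with gaps of 71.9 to 78.3 points.

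In the loci of the 21 myogenic transcription factors, a locus being the gene body extended by 10 kb at each end, 13 of 105 shared regions (12.4%) met the upward rule and 3 (2.86%) the downward rule, against 7.43% and 6.41% over the loci of all genes. Other lists had upward shares above that background too, among them mural markers with 4 of 28 (14.3%), the growth factor and TGF-beta family with 15 of 137 (10.9%), matrix and proteases with 16 of 155 (10.3%) and Z-disc genes with 4 of 39 (10.3%). The largest upward shift among the myogenic factors, chr6:128259162-128260233 in Tead4, a TEAD factor expressed in differentiating muscle, ranked 12.99 and 14.1 in ASC and 87.5 and 89.9 in LncMyod Control. Tead1 held 3 upward regions, of which chr7:112775559-112776824 ranked 22.8 and 28.0 against 70.5 and 74.3. Inside Pax3, chr1:78181145-78182355 ranked 37.0 and 41.4 against 77.0 and 79.5. Eya4, a coactivator of sine oculis homeobox factors, had 2 upward regions, and Tcf12, an E protein that pairs with MyoD, had 2 upward regions and 1 downward. Pax7, the satellite cell identity factor, held 1 downward region, chr4:139797131-139797748, at 49.3 and 49.6 against 20.6 and 20.7, with an adjusted p of 0.0684 by limma. The groups did not overlap at any of these regions, as the rule requires.

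Genes of quiescence and Notch signalling were mixed, with 12 upward (8.33%) and 14 downward (9.72%) regions among 144. Over the loci of all genes these shares were 7.43% and 6.41%. Maml2, a Mastermind coactivator of Notch, had 3 upward regions and 1 downward, the largest upward one (chr9:13603211-13604113) at 3.79 and 25.6 against 96.7 and 83.1. Notch2 itself held 2 upward and 3 downward regions inside one gene body, such as chr3:98046324-98046833 at 5.94 and 1.14 against 33.1 and 28.3 and chr3:98042339-98043621 at 65.2 and 77.4 against 21.1 and 21.2. Those 2 regions are neighbours that moved in opposite directions. At Vcam1, an adhesion molecule of quiescent and activated satellite cells, chr3:116128581-116129770 ranked 73.7 and 81.8 against 14.3 and 27.8. The promoter-proximal region of Cd34, a surface marker of quiescent satellite cells, ranked 67.8 and 75.3 against 24.8 and 27.2.

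Rank and presence could point in different directions at one muscle gene. At Tnnt3, the fast troponin T gene, the single shared region chr7:142496251-142500437 ranked 45.9 and 58.9 in ASC and 0.72 and 0.91 in LncMyod Control. The same region was covered over 907 and 548 bp in the ASC libraries and over 4161 and 4096 bp in the LncMyod Control libraries. Its folds were 4.45 and 4.07 against 2.40 and 2.36, so the low rank belonged to a long peak of low enrichment. At Acta1 a region at the other end of the gene (chr8:123890901-123892927) ranked 24.6 and 25.3 against 2.50 and 2.36 and was covered over 1128 and 1061 bp against 749 and 746 bp, while the promoter was covered in LncMyod Control only. Over all shared regions fold and covered length were only weakly related within a library, with rank correlations of 0.06 to 0.24.

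Covered length per gene locus, scaled to the mean total covered length of the libraries, was tested with limma over all 8 libraries on the log2(bp + 500) scale, which understates changes of loci with little covered length. Of 27938 genes, 636 (2.28%) had more covered length in LncMyod Control and 480 (1.72%) had less. The calls rested on few libraries: without ASC replicate 2, LncMyod Control replicate 1 or LncMyod Control replicate 2, the count fell to 1 gene with more, the noncoding gene Gm33158, and 0 with less, while 2046 to 2481 and 2122 to 2616 genes stayed under an unadjusted p of 0.05. Without ASC replicate 1 the counts were 508 and 268, and without a QSC library 185 and 87 or 88. A group left with 1 library is there assumed to vary like the others. The median over all genes was −0.08 and 40.1% of genes were above 0, and differences below are read against that. Calls of more covered length made up 57.0% of all calls, 76.9% without scaling (which moved the median of all genes to 0.04) and 77.6% when the 4 libraries were fitted alone. With lists of equal length the balance turned, to 1438 genes with more and 1541 with less (48.3% more).

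Among the thin filament genes, 6 of 17 gained covered length and 1 lost it. The 6 gains became 2 with only peaks at a −log10 q of 5 or more, 1 for the gene body alone, 1 with the 4 libraries fitted alone, 1 without ASC replicate 1 and 0 when any 1 of the other 3 libraries was left out. Tnnt3 had 1.14 and 0.66 kb in ASC and 6.48 and 4.33 kb in LncMyod Control, with 1.67 and 1.95 kb in QSC. Its log2 difference was 2.07 ± 0.27 SE (adjusted p 0.0187 by limma). Neb, the nebulin gene that sets thin filament length, went from 1.92 and 2.34 kb to 5.43 and 5.37 kb, and 6 regions in it were held by LncMyod Control only. Acta1, Actc1, Tnnt2 and Tpm2 (beta-tropomyosin) rose by 0.77, 1.08, 1.02 and 0.62 on the log2 scale. Acta1 turned to −0.77 for the gene body alone, and Tpm2 to −0.14 with the stricter peaks and −0.049 at equal list lengths. Tmod4, a tropomodulin that caps thin filaments, fell by 0.84, from 2.16 and 2.48 kb to 1.21 and 0.95 kb. In none of these genes did the 2 groups overlap.

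Of the 19 Z-disc and costamere genes 5 rose and 0 fell, and the 5 became 1 with the stricter peaks and 2 without scaling or with the 4 libraries fitted alone. Csrp3 had no covered bp in ASC and 1.79 and 1.64 kb in LncMyod Control. Klhl41, a stabiliser of nebulin, had 0.92 and 0.78 kb in ASC, 3.16 and 2.64 kb in LncMyod Control and none in QSC (log2 difference 1.33 ± 0.16 SE, adjusted p 0.0157 by limma). Tcap (telethonin), Xirp2 and Myot (myotilin) were the others, with log2 differences of 1.42, 1.75 and 1.70, and Tcap turned to −0.25 at equal list lengths. Of the 19 thick filament genes 2 rose, Myl2 and Myom2, and 0 fell. Ttn, the giant elastic protein titin, had 3.57 and 3.16 kb in ASC and 15.8 and 13.8 kb in LncMyod Control, with 11 regions held by LncMyod Control only, yet at 1.98 ± 0.47 SE its adjusted p was 0.0649. Its libraries of the 2 groups did not overlap.

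In the excitation-contraction coupling list, Trdn (triadin of the calcium release complex) rose and the chloride channel gene Clcn1 fell, and 17 of 19 did not pass. Colq, the collagen tail of synaptic acetylcholinesterase, rose among 11 neuromuscular junction genes, and Cox6a2, a muscle cytochrome oxidase subunit, among 15 metabolism genes. Of 14 fusion and adhesion genes 1 passed: Dysf, whose promoter region ranked lower in LncMyod Control, had 7.86 and 8.08 kb in ASC and 15.7 and 18.1 kb in LncMyod Control (log2 difference 1.03 ± 0.12 SE, adjusted p 0.0148 by limma). Ncam1 had 11.8 and 12.7 kb against 24.3 and 27.2 kb with an adjusted p of 0.0528 (−0.21 on the log2 scale with the stricter peaks), and Mymk, the fusion protein myomaker, 4.08 and 2.25 kb against 6.18 and 6.91 kb with 0.167. None of the 21 myogenic transcription factors passed. Myog came nearest among those printed here, with 2.39 and 2.76 kb against 5.63 and 4.84 kb (log2 difference 0.90 ± 0.20 SE, adjusted p 0.0584 by limma), and 3 regions at its locus were held by LncMyod Control only. Myod1 had 3.57 and 3.00 kb against 3.37 and 3.47 kb, and the groups overlapped.

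**Figure D5:**
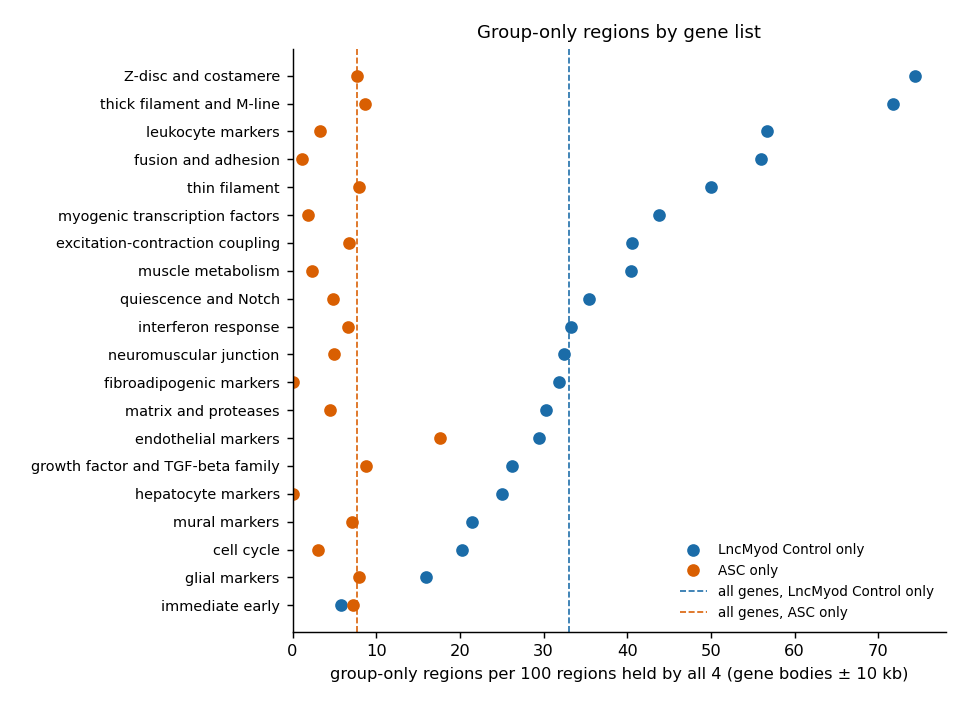
Regions held by 1 group only per 100 regions held by all 4 (x axis) in the loci of each gene list, with dashed lines for the loci of all genes (33.1 for LncMyod Control and 7.70 for ASC). Z-disc and thick filament genes lie at the right end with 74.4 and 71.7 for LncMyod Control, and immediate early genes at the left end with 5.80.

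Counted by regions, Z-disc genes held 29 regions found in LncMyod Control only beside 39 shared ones, thick filament genes 33 beside 46, fusion and adhesion genes 47 beside 84 and thin filament genes 25 beside 50. In the loci of all genes there were 33.1 per 100 shared regions, so these lists lay at 74.4, 71.7, 56.0 and 50 per 100, and myogenic transcription factors at 43.8. These rates pool the regions of all genes in a list, so single large genes weigh heavily. Ncam1 alone held 15 of the 47 fusion and adhesion regions, and Ttn and Neb also held several each. Leukocyte markers lay as high as the fusion list, at 56.7 (17 regions beside 30). For ASC the corresponding values were 7.69, 8.70, 1.19, 8 and 1.90 per 100 against 7.70 over all genes, and endothelial markers had the highest value of the lists, 17.6 (6 regions beside 34). Immediate early genes, which respond within minutes to growth factors and tissue dissociation, lay at 5.80 for LncMyod Control. Fosb, an AP-1 subunit, was the single one of 26 that passed on covered length and fell from 5.50 and 6.87 kb to 3.40 and 3.17 kb, while its promoter region went from ranks of 25.6 and 25.8 to 53.6 and 66.7 (adjusted p 0.0657 by limma). Cell cycle genes lay at 20.2 per 100, and Mcm5 of the replicative helicase was the single one of 37 that passed, with 3.36 and 3.71 kb against 1.22 and 1.23 kb.

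The remaining signalling lists gave single calls. Over all genes 2.28% had more covered length and 1.72% less, so 1 call in a list of this size, here or in another list, says little about the list. Maml2 rose among 27 quiescence and Notch genes, from 8.74 and 5.82 kb to 14.0 and 17.8 kb, with QSC at 14.9 and 17.1 kb. Ddr2, a collagen receptor, fell among 31 matrix genes from 13.4 and 13.4 kb to 7.21 and 7.11 kb and was the smallest p of the downward direction (log2 difference −0.86 ± 0.08 SE, adjusted p 0.0139 by limma). Bmp4 fell among 32 growth factor genes, from 2.63 and 3.24 kb to 1.10 and 0.77 kb. The antiviral gene Oas3 fell among 20 tested interferon genes, from 2.78 and 3.06 kb to 1.57 and 1.495 kb, and had none in QSC.

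Over all genes, many of the smallest p-values on the side of more covered length came at loci nearly empty in ASC. Libraries with no covered bp at a locus show no spread there, so small p-values at such loci follow in part from the measure. Cpne4, a calcium-dependent membrane binding protein, had 0.34 and 0.36 kb in ASC, 3.96 and 5.45 kb in LncMyod Control, and 0.21 and 0.25 kb in QSC (log2 difference 2.60 ± 0.17 SE, adjusted p 0.00892 by limma). Cmah, the enzyme that makes N-glycolylneuraminic acid, had 0.18 and 0.14 kb against 4.69 and 5.10 kb, with 9 regions held by LncMyod Control only and 0 shared. Akt2, the insulin-responsive kinase, went from 1.94 and 1.62 kb to 6.75 and 6.74 kb. Ly6f, Prl7c1, Lcn9, Tmem156 and Gm11213 had no covered bp in ASC (Gm11213 turned to −0.58 on the log2 scale with 50 kb at both ends), and Ptprt was also among those with the smallest p-values. Of these, Ly6f, Prl7c1 and Lcn9 had none in QSC either and passed the length filter only through the cultured libraries. On the other side, Capn6 on the X chromosome had 1.05 and 1.07 kb in ASC, none in any of the 4 cultured libraries, and 1.69 and 1.20 kb in QSC. Pcdh10 (a protocadherin), Atp2b1 (a calcium pump), Niban1 and Prkcb (a protein kinase C) fell with log2 differences of −1.36, −1.07, −1.20 and −0.82, and Ddx43, Lrat, Zkscan16 and Eps8 were the others. Capn6, Atp2b1 and Niban1 had QSC values above those of ASC, and at Pcdh10 the 3.03 and 3.70 kb of QSC overlapped the 2.99 and 3.13 kb of ASC, whereas at Prkcb and Eps8 QSC lay lower, at 5.59 and 5.57 kb beside 11.5 and 10.8 kb in ASC for Prkcb.

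Large genes held the most regions of 1 group. Cdh13, a cadherin gene with a locus of 1205 kb, held 20 regions found in LncMyod Control only and 33 shared ones, and its covered length of 32.0 and 29.9 kb in ASC was near the 33.9 and 34.6 kb of LncMyod Control. Sorcs2 held 18, Snx29 16 and Cacna2d3, Mad1l1, Nav2 and Ncam1 15 each. Camta1, Fam189a1 and Rbfox1 held 14. Of these, Cacna2d3, a calcium channel subunit with 15 such regions beside 7 shared, passed on covered length with 5.51 and 5.20 kb against 13.5 and 12.8 kb (adjusted p 0.0240 by limma), and so did the splicing factor gene Rbfox1 (adjusted p 0.0448). On the ASC side Sox5 held 7 regions, Atrnl1 and Pakap 6, Ano6, Asap1, Auts2, Ltbp1, Pde4b and Tgfbr3 5, and Adamts7 4. Asap1, a regulator of Arf GTPases and focal adhesions, had 24.0 and 22.4 kb in ASC against 13.01 and 11.8 kb and fell by 0.87 on the log2 scale (adjusted p 0.0169 by limma). Across 21631 protein-coding genes, 7187 held at least 1 region of LncMyod Control only and 402 at least 5, compared with 2432 and 9 for ASC only.

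Markers of other cell types were read in the same lists, since a bulk library cannot tell a smaller share of one cell type from lower accessibility per cell. Pax7 and Myf5, which define satellite cells, had a peak on the promoter window in all 4 libraries. In the leukocyte list 4 of 18 tested loci rose (Itgam, C1qb, C1qc and Runx3) and 0 fell, with summed covered lengths of 28.0 and 27.7 kb in ASC, 40.4 and 39.2 kb in LncMyod Control and 18.7 and 18.8 kb in QSC. The 4 became 2 for the gene body alone, without scaling or with the 4 libraries fitted alone, and 1 with 50 kb at both ends. C1qb and C1qc are adjacent, share the same peaks and count as 1 observation. No leukocyte promoter window was held by 1 group only, 2 of 12 were held by all 4, and Ptprc, which encodes the pan-leukocyte antigen CD45, had no peak on its window and 0.77 and 0.29 kb at its locus in ASC against 0.53 and 0.50 kb. The promoter region of Cd68, a macrophage marker, ranked lower in LncMyod Control, at 0.074 and 0.12 against 21.9 and 28.6 in ASC (adjusted p 0.0292 by limma). Endothelial, fibroadipogenic and mural markers gave 0 calls of 13, 12 and 8, with summed lengths in LncMyod Control of 35.1 and 35.9, 23.1 and 20.9, and 31.2 and 30.1 kb beside 39.0 and 37.0, 28.6 and 24.4, and 30.1 and 27.8 kb in ASC. The mural marker Acta2 rose in rank at its promoter, from 7.25 and 31.4 to 65.7 and 82.03 (adjusted p 0.0414 by limma), while its covered length of 2.17 and 2.50 kb against 5.20 and 3.38 kb did not pass (adjusted p 0.151). The hepatocyte gene Ttr rose, the single call of its list, which summed to 7.90 and 8.22 kb in ASC and 9.67 and 11.1 kb in LncMyod Control. Glial markers summed to 26.8 and 27.3 kb in ASC and to 21.7 and 23.0 kb in LncMyod Control. No hepatocyte or glial promoter window was held by all 4 libraries. The part of other cell types in the results above was not tested.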

How the data were processed

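The submitters' processing notes name MACS2 2.1.1, Bowtie2 2.3.2, SAMtools 1.3, bedtools 2.26.0, Picard 2.9.2, Trimmomatic 0.36 and bcl2fastq 2.19, with mm10 as the build. Settings and any shift of read ends were not given in those sources. The authors deposited 1 broad peak list per library, with a display score, a fold enrichment (a ratio to the local background), a −log10 p and a −log10 q for each peak. Replicates were not pooled in these lists. The deposited fold, score and −log10 values are the authors' own and served to rank, filter or describe peaks of 1 library at a time. The lists hold no read counts, so counting intervals cannot be given.

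Overlapping peaks (by 1 bp or more) of the 8 libraries on the autosomes and sex chromosomes were joined into 141310 regions, and a library held a region or promoter window when one of its peaks overlapped it. Regions held by all 4 libraries were ranked within each library by largest fold, on a scale to 100. limma 3.58.1 (R 4.3.3, trended prior, 2-sided, Benjamini-Hochberg adjustment over all features, threshold 0.05) was fitted to the ranks of the 4 libraries, and to covered length per gene over all 8 libraries in 4 groups. Genes needed 200 bp in at least 2 libraries, and 500 bp was added before the logarithm. Gene positions and promoter windows came from RefSeq GRCm38.p6, whose chromosomes share the coordinates of mm10, and windows on chromosomes 18 and Y were not used here. Of 382 gene list entries 380 matched.

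Named were the 10 genes per direction with the largest rank gap among regions past the threshold, the 6 strongest regions of 1 group per direction, the 10 genes per direction with most such regions, the 10 with the smallest p on covered length, list members past the threshold and those with a promoter held by 1 group. Some genes that this rule names are not reported here. The comparison, members and lists were chosen with earlier results of these data known. On simulated data limma recovered 41% of rank shifts of 30 points and 93% of 60 points, with 5 false calls over 45000 regions. For covered length over 27938 genes it recovered 40% of log2 changes of 1 and 100% of changes of 3, with 5 false calls. The simulated noise was normal, independent between features and of the spread that limma itself estimated. Real ranks are bounded and regions are not independent, so these false calls do not measure the error rate in the real libraries.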

Additional observations from a re-analysis of the deposited data

How the results depend on the processing

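Lists cut to equal length (59666 peaks) gave 10131 LncMyod Control only and 7563 ASC only regions, 1394 regions of lower rank, promoters 62 against 534, 11 muscle function promoters in LncMyod Control only, and 1438 genes with more and 1541 with less covered length, where the balance turned to less. With only peaks at a −log10 q of 5 or more, ASC only regions numbered 1848, rank gaps 1760 up and 1401 down, limma rank calls 0 and 0 (3673 and 3591 at an unadjusted p of 0.05), and covered-length calls 1284 and 782. A gap of 10 points gave 6517 and 6506 regions, ranking by −log10 p gave 7163 and 7893 limma calls, and regions held by all 8 libraries gave 1909 and 1315. Covered-length calls numbered 283 and 85 without scaling, 981 and 776 with 50 kb on both sides, and 158 for less when only the 4 libraries were fitted. With the replicate number as a block, covered-length calls were 327 and 224 and rank calls 3597 and 2667. The labels do not say that numbers pair libraries, and deviations of same-numbered libraries correlated at 0.040 (ranks) and 0.0078 (covered length).

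Leaving out 1 library at a time gave 18060 to 24891 LncMyod Control only and 5099 to 10741 ASC only regions, gaps of 4896 to 6655 up and 4289 to 6232 down, promoters of 140 to 218 and 276 to 333, limma rank calls of 0 to 2326 and 0 to 1456, covered-length calls of 1 to 861 and 0 to 648, and 0 to 1 muscle function promoters in ASC only (Ache, without LncMyod Control replicate 1). A gap over fewer libraries is easier to meet. Of 1109 values of named genes under an alternative, 7 changed sign: Gm11213 with 50 kb (−0.58), Acta1 for the gene body alone (−0.77), Tpm2 at the stricter q (−0.14) and at equal lengths (−0.049), Tcap at equal lengths (−0.25), Ncam1 at the stricter q (−0.21) and Pakap at the stricter q (0.12), and 402 lost their call. Of 213 values of named rank regions none changed sign and 42 lost their call, 20 of them without each LncMyod Control library. The alternatives for muscle function promoters were chosen after seeing the data. The cause of these differences was not tested.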

Other observations

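Muscle microRNAs were read after the gene results had been seen, by the length that peaks covered within 10 kb of the locus, without scaling and without a test. Mir1a-1 on chromosome 2 had 0 and 498 bp in ASC, 2087 and 3178 bp in LncMyod Control, 2208 and 1485 bp in LncMyod Knockdown and 1047 and 892 bp in QSC, and it held 1 region of LncMyod Control only and no shared region. The LncMyod Control libraries lay above the ASC and QSC libraries. At Mir206 on chromosome 1, which neighbours Mir133b, the values were 4526 and 2176 bp in ASC, 3829 and 4644 bp in LncMyod Control and 1347 and 1408 bp in QSC, so the groups overlapped. Mir133b gave 5324 and 2473 bp against 3803 and 4053 bp. The mature RefSeq sequences below have the seed, bases 2 to 8, in capitals. For Mir1a-1 only the 5p strand was at hand, so its seed cannot be compared with the 3p seeds of the others.
miR-206-3p: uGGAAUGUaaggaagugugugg
miR-133b-3p: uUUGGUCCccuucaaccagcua
miR-1a-1-5p: aCAUACUUcuuuauaugcccaua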
